A study of Mus musculus with 18 samples.

Results

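Broad domains of H3K4me3 in mouse pancreatic islets are described here: autosomal H3K4me3 peaks of control islets that were at least 4000 bp wide and that met a single H3K4me3 peak of Men1 knockout islets, which in turn met no other control peak. There were 764 such domains among 21215 autosomal control peaks (3.60%), or among 21905 control peaks in all. They were chosen by their width in the control list and by not being split in the knockout list, so the comparison of widths is given as a description and carries no test. Of the 932 autosomal control peaks of at least 4000 bp, 148 met several knockout peaks, 19 met a knockout peak that also met another control peak, and 1 met none. The 764 domains made up 9.30% of the autosomal length called in control islets, 3822 kb against 3539 kb in their knockout partners.

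H3K4me3, trimethylation of lysine 4 of histone H3, marks the start of active and poised genes, usually as a peak that covers the nucleosomes on either side of the start site. A small class of peaks reaches much further into the gene, and such broad domains are known to lie often at genes of cell identity, in islets as in other tissues. Men1 encodes menin, a subunit of the MLL1 and MLL2 methyltransferase complexes that place this mark, and loss of menin in insulin-producing cells is known to lead to islet tumours.

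The series holds 18 ChIP-seq samples (DNA bound by a chosen mark, pulled down with an antibody and sequenced), with 1 library of input DNA and 1 for each mark at each genotype and age. The lists used are H3K4me3 of RIP-Cre control islets and H3K4me3 of islets with an islet-specific Men1 knockout, both harvested at 2 months, and the other 16 samples were not analysed here. RIP-Cre stands for Cre recombinase driven by the rat insulin promoter, which is active in beta cells, so that other cells of an islet may keep Men1. The labels do not name the Cre of the knockout mice. Both genotypes had a mixed background of the strains 129s6, FVB/N and C57BL/6, and the labels do not say how many animals gave each library. Positions are in the mouse build mm9, counted from 1. No gene annotation of mm9 was used, so domains are given by position, and neither the genes in them nor islet marker genes were looked up. The read depth is unknown and each genotype had 1 library, so every difference below is a difference between this pair of libraries.

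Most broad domains had nearly the same width in both genotypes. Control peaks had a median width of 4592 bp (95% interval 4552 to 4670) and ranged from 4000 to 13997 bp. Their knockout partners had a median width of 4324 bp (4266 to 4402) and ranged from 1044 to 14869 bp. On the log2 scale, the ratio of knockout to control width had a median of -0.083 (interval -0.097 to -0.074), which is 94.4% of the control width, with an SD over domains of 0.24. The ratio lay within 0.25 of 0 on the log2 scale in 627 domains (82.1%, exact 95% interval 79.2 to 84.7) and within 0.1 of 0 in 375 (49.1%). The knockout peak was narrower in 587 domains (76.8%), wider in 176 (23.0%) and equal in 1. Over all 17716 autosomal one-to-one pairs, a knockout peak was narrower in 73.7%, with a median of -0.113 on the log2 scale. Pairs of 2000 to under 4000 bp in control islets had -0.106, with 78.2% narrower. Pairs under 2000 bp had -0.128, with 69.8% narrower. At the median, broad domains thus had a smaller relative shift than these narrower classes. Their shift in bp was larger (-272.5 against -182 and -111 bp). These classes were also formed by control width, and no other choice of width was computed for the narrower ones. Nothing is therefore read from the order of the classes. The intervals treat domains as independent and say nothing of how animals or libraries vary.

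The size of this shift moved with the list that chose the domains. A peak chosen for being wide in one list tends to be less wide in any other list. Chosen by a knockout width of at least 4000 bp instead, 594 pairs had a median log2 ratio of -0.025 (interval -0.035 to -0.015) and 60.3% were narrower in knockout. Chosen by the mean of both widths, 654 pairs had a median of -0.051 (-0.063 to -0.041) and 68.8% were narrower. The sign was the same under each choice, while the median moved from -0.083 (control width) to -0.051 (mean width) and -0.025 (knockout width). In the plot of ratios by the width that chose the pairs, the left tail is longest for the choice by control width.

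**Figure D1:**
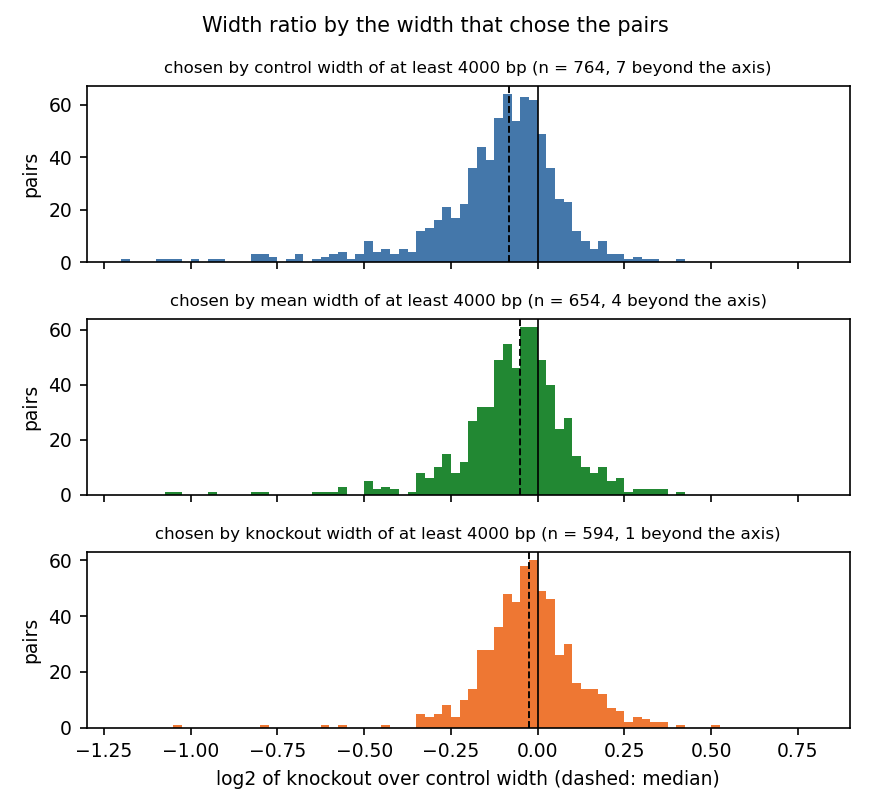
Number of one-to-one autosomal pairs (y axis) by log2 of knockout over control width (x axis), in 3 panels for pairs chosen by control width (n = 764), by mean width (n = 654) and by knockout width (n = 594). The dashed line is the median, which moves from -0.083 to -0.051 and -0.025, and the number of pairs beyond the x axis is given above each panel.

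The threshold of 4000 bp cut through a continuous range. Just inside it were domains of 4000 bp on chromosome 1 (155586466 to 155590465) and on chromosome 5 (53979505 to 53983504), with knockout widths of 3401 and 3732 bp. Just outside were peaks of 3999 bp on chromosome 1 (95373587 to 95377585) and of 3998 bp on chromosome 11 (87797776 to 87801773), with knockout widths of 3752 and 3678 bp. The knockout partner was under 4000 bp wide in 229 of the 764 domains (30.0%). Among the domains, 502 were under 5000 bp wide in control islets, 151 were 5000 to under 6000 bp, 92 were 6000 to under 8000 bp, and 19 were 8000 bp or wider. The median log2 ratio in these classes was -0.097, -0.077, -0.038 and -0.028, while the SD was 0.22, 0.21, 0.34 and 0.38. The intervals of the last 2 medians overlapped (-0.067 to -0.019 and -0.15 to 0.034). The last 2 classes held 9 domains whose knockout peak was at least 1.5 times narrower. Without such domains the SD was 0.14, 0.16, 0.14 and 0.10 in the 4 classes, but leaving them out lowers the SD by construction. The interquartile range over all domains of each class was 0.18, 0.15, 0.14 and 0.18, without an order by width. The wider classes were also more often left out as split or joined: 84.9% of control peaks of 4000 to under 5000 bp met the rule (interval 81.8 to 87.7), against 59.4% of those of 8000 bp or more (40.6 to 76.3, 32 peaks).

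The widest domains of the control list held both small and large differences. The widest lay on chromosome 2 (115880751 to 115894747), 13997 bp wide in the control list and 6868 bp in the knockout list. The next, also on chromosome 2 (147008016 to 147021705), was 13690 bp wide and its knockout partner 14869 bp. A domain on chromosome 13 (12656918 to 12669946) had 13029 and 12716 bp. Knockout minus control width was thus -7129 bp at the widest domain, and 1179 and -313 bp at the next 2 in rank. On chromosome 5 a domain (143574308 to 143585106) was 10799 bp wide, against 9959 bp in the knockout list. On chromosome 12 (103791997 to 103802524) the widths were 10528 and 10733 bp. A further domain on chromosome 5 (102085266 to 102095422) had 10157 and 10021 bp. Of these 6, only the first had a ratio below -0.12 on the log2 scale.

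**Figure D2:**
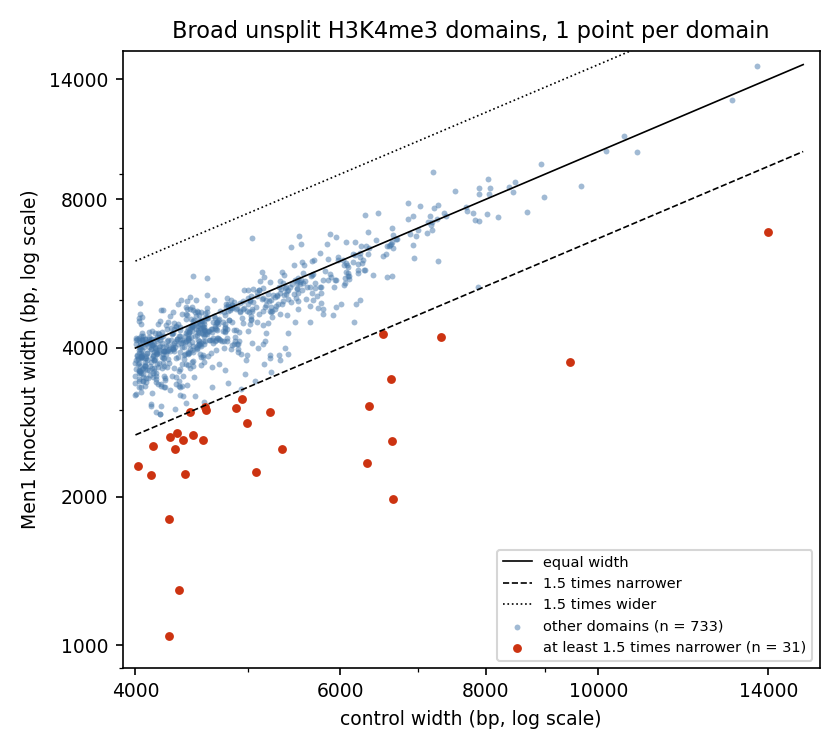
Control width (x axis, bp, log scale) against Men1 knockout width (y axis, bp, log scale) of the 764 domains, 1 point each. Most points follow the line of equal width; the 31 domains in red lie on or below the dashed line of 1.5 times narrower, and 0 lie above the dotted line of 1.5 times wider.

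Among domains chosen by control width, a small group was much narrower in knockout islets, and none was as much wider. The knockout peak was at least 1.5 times narrower in 31 domains (4.06%), against 6.08% of all autosomal one-to-one pairs. It was at least 1.5 times wider in 0 domains, against 0.943% of all pairs. At least 2 times narrower were 11 domains, and 1.27% of all pairs. The rule used these widths, so nothing is read from these shares. Chosen by knockout width, 3 of 594 pairs were at least 1.5 times narrower and 1 wider, and chosen by mean width, 11 of 654 were narrower and 0 wider. The 31 domains lay on 12 of the 19 autosomes, with 5 on chromosome 13, 4 on chromosome 12 and 3 each on chromosomes 6, 7, 8 and 9. Their median control width was 4598 bp and their median knockout width 2640 bp. They held 29.2% of the net difference in length over all domains (-82.7 of -283.6 kb). Without them the median log2 ratio was -0.078 and the SD 0.15. Leaving out domains from the low end of the ratios lowers the SD by construction, so nothing is read from this fall.

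The 6 lowest width ratios were as follows. On chromosome 8 a control domain of 4278 bp (96790164 to 96794441) faced a knockout peak of 1044 bp, a log2 ratio of -2.03. The score, the authors' deposited value for each peak, was 1233 in the control and 115.5 in the knockout list. On chromosome 10 a domain of 4360 bp (50619515 to 50623874) faced one of 1295 bp (-1.75), with scores of 2265 and 231. Both thus had low scores in the knockout list, where 736 of the 764 partners reached the tied score of 3100. On chromosome 13 a domain (72095477 to 72102134) had 6658 and 1981 bp (-1.75). On chromosome 6 (112435152 to 112441483) the widths were 6332 and 2335 bp (-1.44). A further domain on chromosome 13 (72763979 to 72770625) had 6647 and 2598 bp (-1.36), and lay 662 kb from the other one. These 3 had knockout scores of 797, 1301 and 1469. The sixth, on chromosome 18 (11047954 to 11057401), had 9448 and 3752 bp (-1.33) and reached 3100 in both lists.

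Low scores went with narrow knockout partners, and their part in the width was not tested. Of the 31 domains, 13 had a knockout score under 3100 and 5 a control score under 3100. Over all domains these numbers were 28 and 14. The 28 domains with a knockout score under 3100 had a median log2 ratio of -0.49 (interval -0.99 to -0.28). In the 730 domains with 3100 or more in both lists the median was -0.081, close to that over all domains, and 18 were at least 1.5 times narrower.

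The 6 highest ratios were much closer to 0, a contrast that the choice by control width favours. Chosen by knockout width, the log2 ratios ran from -1.03 to 2.82, the latter at the 1 pair at least 1.5 times wider. Nothing is therefore read from the contrast. On chromosome 9 a domain of 5038 bp (44186105 to 44191142) faced a knockout peak of 6671 bp, a log2 ratio of 0.41. On chromosome 17 (31037882 to 31045091) the widths were 7210 and 9086 bp (0.33). A further domain on chromosome 9 (107198044 to 107202527) had 4484 and 5599 bp (0.32). In these 3 the knockout peak was longer by 1633, 1876 and 1115 bp. On chromosome 19 (44367535 to 44373059) the widths were 5525 and 6757 bp (0.29). The domain on chromosome 14 (60996278 to 61000317) had 4040 and 4930 bp (0.29). The last, on chromosome 8 (9768511 to 9773119), had 4609 and 5553 bp (0.27). All 6 had a score of 3100 in both lists. In all, the difference summed to 51.2 kb over the 176 wider domains and to -334.8 kb over the 587 narrower ones. These sums are also for the choice by control width, which favours the narrower ones.

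**Figure D3:**
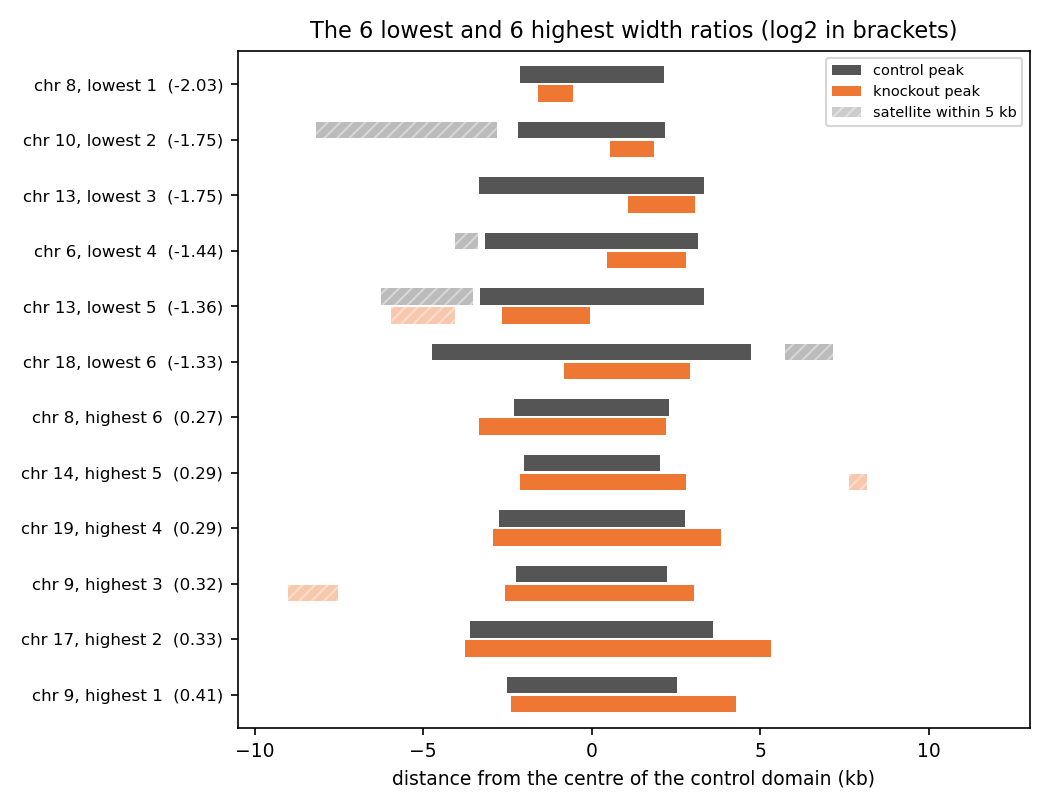
Extent of the control peak (grey) and the knockout peak (orange) relative to the centre of the control domain (x axis, kb), for the 6 domains with the lowest and the 6 with the highest width ratio; hatched bars are other peaks of the same list within 5 kb of the domain's own peak. In 5 of the 6 lowest ratios at least 80% of the missing length lies at one end, and the hatched bar beside the chromosome 10 domain is itself a broad domain.

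Domains differed in which edge moved. The inset of an edge is the distance by which the knockout edge lay inside the control edge. Left and right refer to the genome's coordinates and not to the direction of a gene. The median inset was 117 bp at the left edge (interval 95 to 132) and 113 bp at the right edge (98 to 136), so neither side of the coordinates stood out. These insets moved with the choice of domains: chosen by knockout width, the medians were 28 bp (12 to 55) on the left and 58 bp (36 to 74) on the right, and chosen by mean width, 74 and 85.5 bp. All counts of edges below are for the choice by control width. The knockout edge lay inside on the left in 543 domains (71.1%) and on the right in 566 (74.1%). Both edges were inside in 416 domains (54.5%, interval 50.8 to 58.0), against 48.8% of all one-to-one pairs. Both were outside in 70 (9.16%, against 11.0% of all pairs). In 276 domains (36.1%, against 39.8% of all pairs) one edge was inside and the other outside. Of the 1528 edges, 886 (58.0%) were within 200 bp of the control edge, against 75.7% of the edges of narrower one-to-one pairs.

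Large insets were few and were rarely found at both edges of a domain. An edge lay at least 1000 bp inside in 63 domains, and in 1 of these, the chromosome 18 domain given above, both edges did so. With so few such edges, few domains with both would be met even if the edges had no relation, so nothing is read from that count. These 64 edges were 4.19% of all edges, against 0.485% over all one-to-one pairs, most of which were under 4000 bp wide, and held 31.9% of the length lost at edges (114.2 of 358.1 kb). Of them 35 were left and 29 were right edges. At the other edge of the 63 domains the median inset was 135 bp (interval 62 to 192), and it lay within 200 bp of the control edge in 41. An edge lay at least 1000 bp outside in 8 domains, 2 on the left and 6 on the right, and in 0 domains did both. Outward moves of 2000 bp or more were not found, while 16 domains had an inset of that size. The choice by control width favours insets over outward moves, so nothing is read from this contrast. Over all 764 domains, left and right inset had a Pearson r of 0.11 and a Spearman rho of 0.12 across domains, which share both libraries. For the 16952 one-to-one pairs under 4000 bp rho was 0.09.

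A share of the edge change was computed for the 613 domains in which both edges together moved by at least 200 bp. In 271 of them (44.2%, interval 40.2 to 48.2) one edge held at least 80% of the change, against 33.1% of all one-to-one pairs with that much change. The moved edge was the left one in 141 and the right one in 130. It lay inside the control domain in 217 and outside in 54, a contrast that the choice by control width also favours. Among the 31 domains at least 1.5 times narrower, 26 were one-sided in this sense (83.9%, interval 66.3 to 94.5). Over all one-to-one pairs at least 1.5 times narrower it was 37.6% (34.7 to 40.6, 1075 pairs), in which narrow peaks prevail and the same fold takes fewer bp. Both sets were picked by their edge change, and the share is a description. The left edge lay further in for 16 of these 31, both edges lay at least 500 bp inside in 7, and an edge lay outside the control domain in 2.

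**Figure D4:**
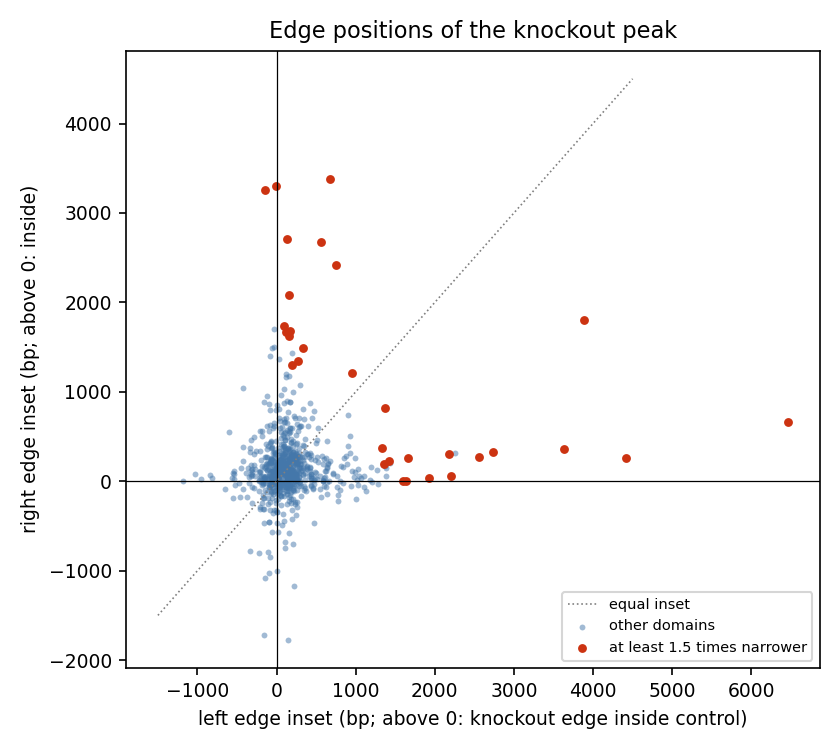
Left edge inset (x axis, bp) against right edge inset (y axis, bp) of the 764 domains, where values above 0 put the knockout edge inside the control domain. Points with a large inset lie mostly near one axis or the other, and 1 domain exceeds 1000 bp on both axes.

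The largest differences between the edges arose at either end. The widest domain, on chromosome 2, had a left inset of 6467 bp and a right inset of 662 bp. At the chromosome 13 domain that starts at 72095477 the left inset was 4419 bp and the right inset 258 bp. Both had most of the difference on the left. On chromosome 12 a domain (39504379 to 39511703) kept its left end, with insets of -148 and 3262 bp and widths of 7325 and 4211 bp. Another domain on chromosome 12 (75384524 to 75390874) had its left edge within 10 bp of the control edge and its right edge 3302 bp inside, with widths of 6351 and 3059 bp. The chromosome 6 domain at 112435152 had insets of 3637 and 360 bp, and the chromosome 13 domain at 72763979 of 674 and 3375 bp. The chromosome 13 domains given here were thus shorter mostly at the ends away from each other. They lay 662 kb apart, so nothing is read from this. Among wider domains, the chromosome 9 domain at 44186105 had a right inset of -1773 bp, which is outside the control domain, and a left inset of 140 bp.

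Satellites, defined here as other peaks of the same list within 5 kb of the domain, were present at a minority of domains. A control satellite was found at 183 domains (24.0%, interval 21.0 to 27.1), against 19.1% of all one-to-one pairs. A knockout satellite lay within 5 kb of the knockout partner at 148 domains (19.4%, 16.6 to 22.4), against 17.8% of all pairs. Within 10 kb the share in the control list was 34.4% (31.1 to 37.9), against 32.5% of all pairs. In the knockout list it was 30.1% (26.9 to 33.5), against 30.7%. Both intervals held the share of all pairs, as did that of the knockout list within 5 kb. Both lists had a satellite at 118 domains, the control list alone at 65 and the knockout list alone at 30. At 551 domains (72.1%) neither had one. Satellites on both sides were seen at 16 domains in the control and at 19 in the knockout list. A knockout peak inside the control domain counts as a split and takes the domain out of the set, so the knockout satellites are those beyond the control edges or at a gap that the control list also has.

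The satellites of broad domains were mostly small peaks. The 213 control satellites had a median width of 1334 bp (interval 1192 to 1510) and a median score of 338, and 10 were themselves at least 4000 bp wide. A peak of the knockout list was met by 146 of them (68.5%, interval 61.9 to 74.7). The 67 others had a median width of 876 bp and a median score of 99.3. For comparison, control satellites of the one-to-one pairs under 4000 bp met a knockout peak in 85.8% (interval 84.6 to 87.0), but their median score was 1289. Satellites with a score under 200 made up 39.4% of those at broad domains and 24.0% of those at narrower pairs. Within that score range 34.5% (24.5 to 45.7) and 47.6% (44.1 to 51.1) met a knockout peak. At scores of 200 to under 1000 the shares were 78.6% (65.6 to 88.4) and 93.1% (91.1 to 94.8). At 1000 or more, all 73 satellites of broad domains met a knockout peak, as did 1780 of 1781 at narrower pairs. In the knockout list, 143 of 189 satellites of broad domains (75.7%, 68.9 to 81.6) met a control peak, and 90.4% (89.3 to 91.4) at narrower pairs. Satellites found in one list were thus weak in both directions, and without replicates the share missed by the peak caller is not known.

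The inset of edges was compared with the presence of satellites, a contrast that the selection fixes in part. An edge that lay further in and left a separate knockout peak inside the control domain was counted as a split and is not among the domains, and knockout satellites were sought from the knockout's own edge. Edges with a control satellite on their side had a median inset of 134 bp (interval 67 to 175, 199 edges), and those without had 113 bp (101 to 126, 1329 edges). Edges with a knockout satellite had a median inset of 37 bp (5 to 99, 167 edges), and those without had 120 bp (108 to 136, 1361 edges). The knockout edge lay outside the control edge in 40.7% of edges with a knockout satellite (33.2 to 48.6) and in 25.6% of those without (23.3 to 28.1). For these reasons nothing is read from the difference.

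Some domains had up to 6 satellites in the 2 lists together. The domain on chromosome 9 at 72891803 to 72896796, with widths of 4994 and 4913 bp, had 3 in each list, and each met one of the other list. On chromosome 15 a domain (52126728 to 52134534) of 7807 and 7523 bp had 2 control and 3 knockout satellites on its right side, where the nearest lay 301 bp away in the control and 72 bp away in the knockout list. On chromosome 7 (52959017 to 52965359) the widths were 6343 and 6865 bp, with 2 control and 3 knockout satellites. On chromosome 14 (22804651 to 22810581) there were 3 and 2 satellites beside widths of 5931 and 5309 bp. The remaining named domains, on chromosome 11 (120431212 to 120436300) and chromosome 16 (23986517 to 23990589), had widths of 5089 and 5197 bp, and of 4073 and 4177 bp. The widths of these 6 differed by 622 bp at most between the lists. The widest domain, on chromosome 2, was different. On its receding left side it had control satellites of 1620 and 630 bp, with scores of 198 and 62.4, that met no knockout peak. Its right satellite had a control width of 1443 bp and a knockout width of 677 bp.

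Broad domains were mostly far apart, with a minority in short runs. The median gap to the nearest other domain was 800.5 kb, and the largest was 20508 kb, on chromosome 5. Another domain lay within 100 kb of 82 domains (10.7%, interval 8.63 to 13.1). These formed 39 runs, 35 of 2 domains and 4 of 3. Wide control peaks left out as split or joined were not counted as neighbours. The share depends on how many peaks are taken: at a threshold of 3000 bp, with 2619 domains, it was 32.4%. No share for other sets of peaks is given beside it, so nothing is read from the spacing. Broad domains were 2.72% of control peaks on chromosome 9 (interval 1.87 to 3.82), the lowest share of an autosome, and 5.23% on chromosome 19 (3.73 to 7.11), the highest. The median log2 ratio was below 0 on each of the 19 autosomes, and its interval was below 0 on 18, the exception being chromosome 16 (-0.15 to 0.025). The choice by control width favours ratios below 0, and all autosomes share this pair of libraries. Nothing is therefore read from the count of autosomes.

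The 4 runs of 3 domains, and the 2 runs of 2 with the greatest summed control width, were named by rule. On chromosome 11 (69179414 to 69234506) 3 domains covered 16504 bp in the control and 16770 bp in the knockout list. The runs of 3 on chromosome 7 (134024604 to 134172284), chromosome 6 (125045677 to 125117845) and chromosome 2 (152494827 to 152657544) covered 14303 and 14235 bp, 13629 and 12739 bp, and 12713 and 11568 bp. The pair on chromosome 17 (34163617 to 34261562) covered 15125 and 15200 bp, and the pair on chromosome 3 (89194363 to 89227517) 12952 and 13990 bp. Knockout exceeded control length in the runs on chromosomes 11, 17 and 3 and fell short of it in the other 3, most on chromosome 2. No domain of these 6 runs had a log2 ratio below -0.26 or above 0.24.

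A pair outside these 6 was much narrower at the ends that faced each other. On chromosome 10 the domains at 50613532 to 50618881 and at 50619515 to 50623874 lay 633 bp apart in control islets. The left one had widths of 5350 and 2501 bp, with insets of 135 bp at its far edge and 2714 bp at its facing edge. The right one had insets of 2740 bp at its facing edge and 325 bp at its far edge. The pair covered 9710 bp in the control and 3796 bp in the knockout list, and the gap between the peaks was 6087 bp in the knockout list. The pair was picked after its values were known. Over all 43 pairs of adjacent domains up to 100 kb apart, facing edges had a median inset of 77.5 bp (38 to 179) and far edges of 78.5 bp (51 to 125). The intervals of facing and far edges thus overlapped over all such neighbours.

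**Figure D5:**
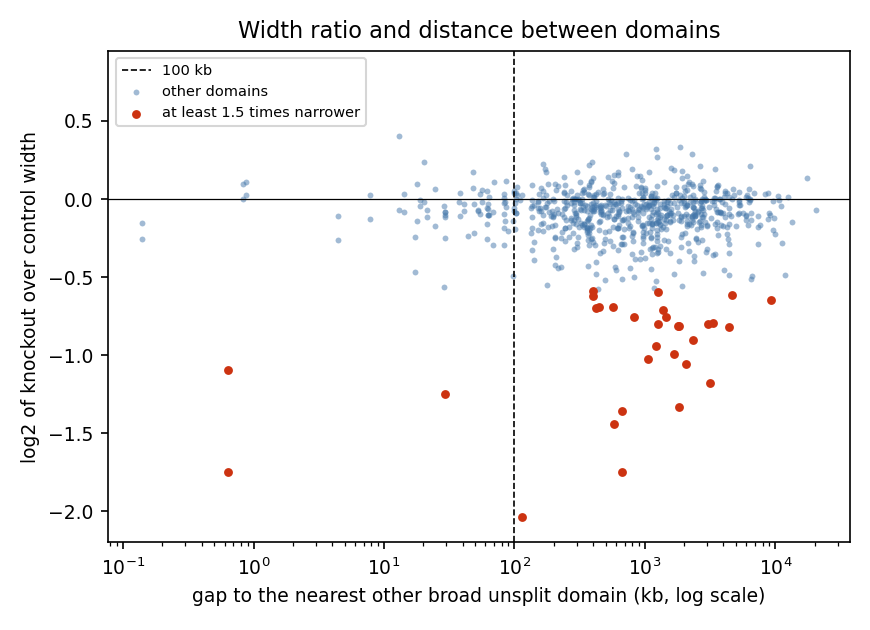
Gap to the nearest other broad unsplit domain (x axis, kb, log scale) against log2 of knockout over control width (y axis) for the 764 domains. The domains in red are at least 1.5 times narrower; 3 of the 31 lie left of the dashed line at 100 kb, including the pair on chromosome 10 at a gap of 0.633 kb.

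Width ratios of neighbouring domains differed about as much as those of distant ones. In the 43 pairs of adjacent domains up to 100 kb apart, both were narrower in knockout in 21, both wider in 2, and one of each in 20. The median absolute difference of their log2 ratios was 0.12 (interval 0.10 to 0.17), against 0.13 at gaps of 100 kb to 1 Mb and 0.15 at larger gaps. Pearson r across the 43 pairs was 0.53 and Spearman rho 0.25. Without the chromosome 10 pair they were 0.12 and 0.20, so the higher r rested on that pair. In runs, 3 of 82 domains were at least 1.5 times narrower, and outside them 28 of 682.

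Smaller peaks near the narrowed domains were mostly narrower in the knockout list too, as were those near other domains, though by less. Within 50 kb of 17 of the 31 domains lay 25 one-to-one pairs under 4000 bp wide in control islets. Their median log2 ratio was -0.28 (interval -0.49 to -0.16), and 23 of the 25 were narrower in knockout (92.0%, interval 74.0 to 99.0). Near the 733 other domains, 1064 such pairs had a median of -0.12 (-0.14 to -0.11), and 75.2% were narrower (72.5 to 77.8). The pairs near narrowed domains had lower scores, with a control median of 880 against 2351. Their median control width was 1643 bp (interval 1332 to 1844), against 1855 bp (1786 to 1909). The part of scores and widths in the difference was not tested. Some pairs lay near the same domain, and the intervals treat them as independent. Among pairs with a control score of 3100 or more the medians were -0.16 (interval -0.28 to -0.12, 6 pairs) and -0.089 (-0.11 to -0.073, 454 pairs).

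The domains were also grouped by the number of other control peaks within 50 kb. With at most 1 (409 domains) the SD of the log2 ratio was 0.27, with 2 to 4 (259 domains) it was 0.20, and with 5 or more (96 domains) 0.15. Without the domains at least 1.5 times narrower the SD was 0.15, 0.14 and 0.15. Leaving these domains out lowers the SD by construction, so the order is not ascribed to them. The interquartile range over all domains of each class was 0.18, 0.17 and 0.16. The median was -0.087 (-0.10 to -0.070), -0.097 (-0.12 to -0.081) and -0.026 (-0.077 to -0.0067). At least 1.5 times narrower were 21 domains of the first class (5.13%, interval 3.21 to 7.74) and 10 of the second (3.86%, 1.87 to 6.99). In the class with most neighbours there were 0, which allows a share of up to 3.12% at 3 counts, or 3.77% by the exact interval, so that its interval overlapped those of both other classes.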

How the data were processed

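Per the submitters' processing notes, the reads were handled with Bowtie and MACS 1.4.2 on mm9. Information on filters, on input libraries in peak calling and on pooling of animals is not given in the sources used here. The deposited files are peak lists without header, and the score of each peak is the authors' value on a scale the files do not state, with many peaks tied at 3100. Starts and ends were used as deposited, and width is end minus start. Lists were assigned to samples by the genotype, age and mark in their names, which also hold an unexplained "2nd". No per-sample column was left unused (0).

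Peaks were paired at an overlap of at least 1 bp. Medians carry 95% order-statistic intervals and shares exact (Clopper-Pearson) 95% intervals, computed with Python 3.11.15 and SciPy 1.17.1. No p-value was computed, as each genotype has 1 library. Named regions are the 6 extremes of width, width ratio, edge asymmetry, satellites and runs, and the peaks next to the threshold, with ties broken by control width. Members, lists and rules were chosen with earlier results of these data known. Functions were tested on simulated data.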

Additional observations from a re-analysis of the deposited data

How the results depend on the processing

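The median log2 width ratio was below 0 under each of its 9 alternatives, and 23 of 56 recomputed values stayed close to the reported one (inside its 95% interval, or within 1.5 times for a count). Apart from the choices by knockout width and by mean width, the 9 alternatives still chose domains by control width, which favours ratios below 0. Choice by knockout width gave a median of -0.025, 3 domains narrower and 1 wider by 1.5 times, and insets of 28 bp left and 58 bp right. Choice by mean width gave -0.051, 11 narrower, and insets of 74 and 85.5 bp. A threshold of 3000 bp gave 2619 domains, -0.099, 90 narrower, control and knockout satellites at 19.1% and 16.2%, and another domain within 100 kb at 32.4%. A threshold of 5000 bp gave 262 domains, -0.059 and 12 narrower. A reciprocal overlap of 50% gave 897 domains, -0.10, 65 narrower, 2 wider and 49.5% one-sided. Merging within 1 kb gave 1135 domains, 72 narrower and 1 wider. At 2-fold, 11 were narrower. With scores of 3100 or more in both lists, chosen after seeing the data, 18 were. At 90% on one side, 20.1% were one-sided. Satellites within 2 kb were at 13.4% (control) and 11.6% (knockout), against 9.21% and 8.32% of all pairs, and within 10 kb at 34.4% and 30.1%, against 32.5% and 30.7%. Another domain lay within 50 kb at 6.02% and within 500 kb at 39.5%. The thresholds, distances and choices of list change which peaks are counted by construction; other causes were not tested. No paired analysis was possible because there was 1 library per genotype, and for that reason none could be left out. Depth is unknown.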

Other observations

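On the X chromosome, 18 control peaks met the other criteria of a broad unsplit domain. Their median log2 width ratio was -0.075 (interval -0.17 to -0.031), and all 18 were narrower in knockout, from -0.33 to -0.0071. Of the 764 autosomal domains 76.8% were narrower, with a median of -0.083, inside that interval. Both sets were chosen by control width. The domains that follow were picked with their values known. Some broad domains had a low score in the control list and nearly the same width in both lists. Whether repeated sequence lies at their positions was not looked up, and peaks were used as deposited, without a filter for it. On chromosome 17 a domain (39979788 to 39986026) had 6239 bp and a score of 756 in control, and 6110 bp and a score of 3100 in knockout islets. On chromosome 4 (145739836 to 145743970) the widths were 4135 and 4069 bp, with the lowest control score of all domains, 314, and a knockout score of 476. The smallest gap between broad domains was 140 bp, on chromosome 18 between 55148745 and 55148886, and a gap was present there in both lists.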
